A study of Mus musculus with 9 samples.

Results

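The genes described here are those whose expression moved the same way in both immunotherapy-resistant lines derived from a mouse pancreatic tumor cell line. A gene was included when all 6 libraries of the escape lines lay above, or all 6 below, all 3 parental libraries in the deposited table of TPM, transcript abundance scaled to a fixed total per library. Of 24493 genes in the table, 12769 reached 1 TPM in at least 3 libraries and were tested, and 5828 of these (45.6%) met the rule: 3090 were higher in both lines (24.2% of genes tested) and 2738 were lower (21.4%). A further 348 higher and 701 lower genes met the rule but did not reach that level and are not described.

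The study has 3 groups of 3 libraries. All are untreated pancreatic tumor cells of the mouse, genetic background C57BL/6, cultured in DMEM plus 10% FBS: the parental cells, escape e1 and escape e2, both derived from the parental cells as resistant to immunotherapy. Each escape group is a single derived line, and the labels name no immunotherapy, no genetic change and no way of selection. They do not tell if the 3 libraries per group came from separate cultures. A p-value therefore reflects only the spread among these libraries, which may be technical. TPM scales each library to a fixed sum and keeps no sequencing depth, so the depth is unknown. Values at 0 are given as listed at 0. In a bulk library, fewer cells that express a gene and less RNA per cell cannot be told apart.

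Epithelial cells are held together by E-cadherin junctions, tight junctions and desmosomes, and are stiffened by keratin filaments. In the epithelial to mesenchymal transition, transcription factors of the SNAI, ZEB and TWIST families lower these genes, many by binding E-box sequences in promoters, while vimentin, contractile proteins and fibrillar collagens come on. Pancreatic duct cancer is known for passing through such states. Interferons, a separate system, switch on antiviral genes and the machinery that loads peptides onto MHC class I for T cells.

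Most shared changes were small. The contrast given for each gene is the mean of the e1 and e2 group means minus the parental mean on the log2(TPM + 1) scale, called the mean log2 difference here. A value with its SE in brackets after a gene is this quantity unless another is named. Its median size was 0.74 among the higher genes and 0.86 among the lower genes, and 900 and 706 genes differed by less than 0.5. A difference of 1 or more was met by 1028 higher and 1233 lower genes (8.05% and 9.66% of genes tested), one of 2 or more by 354 and 556, and one of 4 or more by 61 and 116. Since the rule used this contrast, its values are a description and carry no test. In the limma fit the contrast passed for 39.4% of genes tested as higher and 33% as lower. In 572 of the higher genes no parental library reached 1 TPM, and in 463 of the lower genes no escape library did, so these entered only through the side on which they were high.

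One library stood apart. Over the shared genes, e1 library 1 deviated from its group mean by a root mean square of 0.214 on the log2 scale, against 0.0688 to 0.146 in the other 8. It was the escape library nearest to the parental range in 1203 of the 3090 higher genes and 583 of the 2738 lower genes. Without it the rule took in 3707 higher and 3096 lower genes.

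The lower genes with the largest difference were epithelial. Krt7, a keratin of duct epithelium (chr15:101412403-101427806), stood at 2081, 2392 and 2318 TPM in the parental libraries, 1.14, 1.16 and 0.835 in e1 and 29.9, 26.3 and 28.04 in e2, a mean log2 difference of -8.20 ± 0.07. Epcam, an adhesion molecule of the epithelial surface (chr17:87635979-87651127), stood at 171, 114 and 115 TPM in the parental libraries, 0.248, 0.329 and 0.312 in e1 and 0.131, 0.155 and 0.269 in e2 (-6.74 ± 0.13). Cldn4, a tight junction claudin (chr5:134945123-134946934), stood at 262, 166 and 156 TPM in the parental libraries, 0.0318, 0 and 0 in e1 and 0.113, 0.0448 and 0.133 in e2 (-7.50 ± 0.15). In each of these genes the parental libraries were far above every escape library, and Krt7 alone of them kept a level above 20 TPM in e2. Cdh1, which encodes E-cadherin, stood at 232, 225 and 223 TPM in the parental libraries, 6.64, 11.5 and 10.5 in e1 and 21.8, 20.8 and 20.2 in e2 (-3.92 ± 0.13). Cdh1 was lower without overlap but stayed above 6 TPM in both lines.

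**Figure D1:**
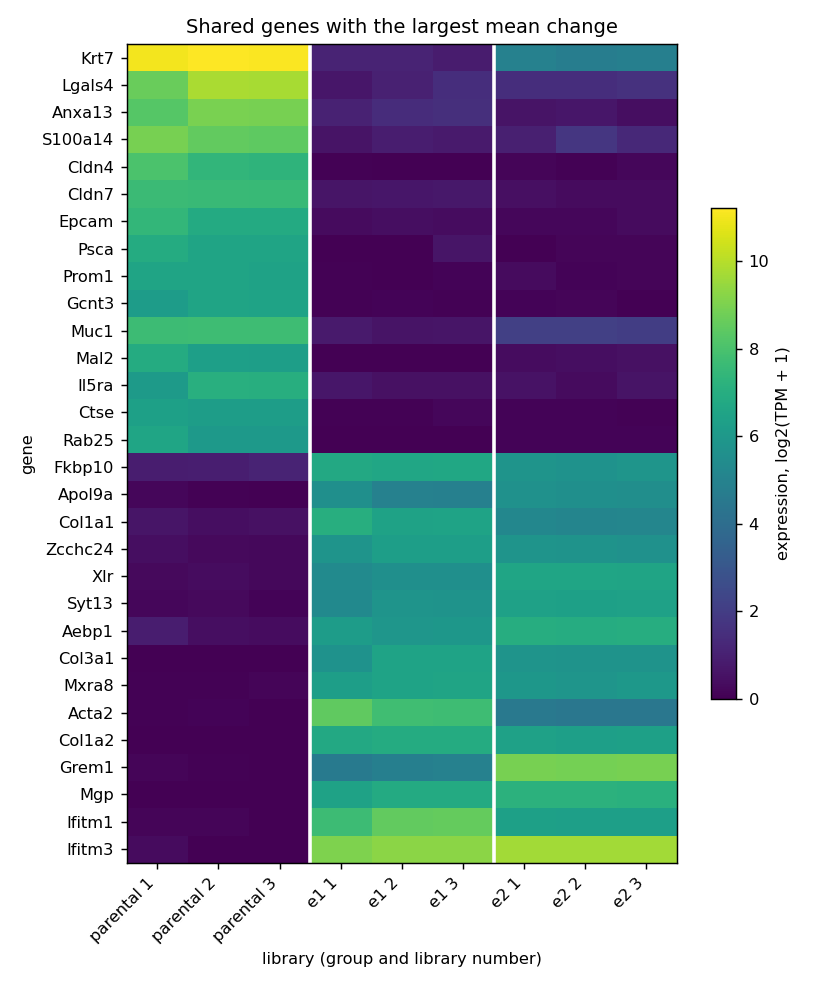
Expression as log2(TPM + 1) of the 15 shared lower and 15 shared higher genes with the largest mean log2 difference, 1 row per gene and 1 column per library. White lines part the parental, e1 and e2 libraries. Krt7 (top row) falls from at least 2081 TPM in parental libraries to at most 29.9 in escape libraries, and Ifitm3 (bottom row) goes from at most 0.256 to at least 539.

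Of 35 tested genes of epithelial adhesion and junctions, 33 were lower in both lines, 0 were higher, and the median log2 difference was -3.14. The median over all genes tested was 0.04. Jup, a plaque protein of desmosomes and adherens junctions, was outside the rule. Of these 35 genes 12 entered only through the parental libraries. Among the 23 with a library at 1 TPM or more on both sides, 21 were lower, against 20% of all such genes. Keratins were lower in 8 of 9 (median -2.62). Krt20, a keratin of gut-type epithelium, stood at 80.5, 123 and 122 TPM in the parental libraries, 0.147, 0.7003 and 0.664 in e1 and 1.499, 1.08 and 1.19 in e2. Krt23 stood at 64.2, 62.6 and 59.99 TPM in the parental libraries, 0.0382, 0 and 0.216 in e1 and 2.09, 1.83 and 1.33 in e2. Both were high in every parental library and under 3 TPM in every escape library.

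Surface proteins, mucins and proteases of epithelia were lower in 30 of 36 and higher in 0 (median -3.25). Of the 36, 17 entered only through parental and 2 only through escape libraries. Among the 17 present on both sides 13 were lower and 0 higher. Muc1, a transmembrane mucin, stood at 208, 215 and 211 TPM in the parental libraries, 0.778, 0.524 and 0.569 in e1 and 3.4, 3.37 and 3.08 in e2, with the e2 libraries above those of e1. In both lines its level was a small part of the parental one. Prom1, the surface protein CD133 of apical membranes, stood at 94.2, 92.7 and 87.8 TPM in the parental libraries, 0.0421, 0 and 0.0894 in e1 and 0.243, 0.0891 and 0.107 in e2. Psca, a lipid-anchored antigen of the pancreatic tumor surface, stood at 118, 93.2 and 93.8 TPM in the parental libraries, 0, 0 and 0.544 in e1 and 0, 0.109 and 0.108 in e2. Ctse, the aspartic protease cathepsin E, stood at 83.05, 74.9 and 74.4 TPM in the parental libraries, 0.0534, 0.0398 and 0.151 in e1 and 0.0952, 0.0753 and 0.0372 in e2. Prom1, Psca and Ctse were near 0 in all 6 escape libraries. Lgals4, a galectin of gut-type epithelium (-8.11 ± 0.27), S100a14, a calcium-binding protein of epithelia (-7.57 ± 0.17), Anxa13, an epithelial annexin (-7.75 ± 0.16), and Gcnt3, a mucin glycosyltransferase (-6.34 ± 0.09), were lower by as much.

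Transcription and splicing regulators of epithelial cells were lower in 21 of 27 (median -1.99). Of the 27, 11 entered only through parental and 1 only through escape libraries. Among the 15 present on both sides 10 were lower and 2 higher. Esrp1, which sets epithelial splicing, stood at 37.1, 28.9 and 28.1 TPM in the parental libraries, 0.04095, 0.02196 and 0 in e1 and 0, 0.0193 and 0.0205 in e2, and its paralog Esrp2 was lower too (-4.09 ± 0.07). Hnf4a, a nuclear receptor of the classical pancreatic tumor type, stood at 61.9, 76.4 and 74.7 TPM in the parental libraries, 0.0124, 0.1098 and 0.0175 in e1 and 0.641, 0.606 and 0.618 in e2. Gata6, another factor of that type, stood at 17.4, 21.4 and 20.8 TPM in the parental libraries, 0.154, 0.102 and 0.1702 in e1 and 1.77, 1.38 and 1.196 in e2 (-3.64 ± 0.10). Grhl2 (-3.25 ± 0.10), which maintains epithelial junction genes, was under 0.3 TPM in every escape library. The direction was not uniform: Sox9, a duct and progenitor factor, was higher in both lines, at 8.56, 4.799 and 4.86 TPM in the parental libraries, 20.3, 15.4 and 16.99 in e1 and 43.6, 39.2 and 41.4 in e2. Tfap2a (2.12 ± 0.10) and Creb3l1 (1.25 ± 0.10) were higher as well.

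Promoter sequence was examined because the ZEB and SNAI repressors bind the E-box CAGGTG, so the promoters of 5 lower genes that hold it are shown: the claudin, keratin and surface genes above, and Rab25 and Ap1m2, which sort proteins to epithelial membranes. Each line gives the 250 bases before the RefSeq transcription start (GRCm38.p6), written 5′ to 3′ on the gene's strand. Capitals mark each match to CAGGTG or to its reverse complement CACCTG.
Epcam: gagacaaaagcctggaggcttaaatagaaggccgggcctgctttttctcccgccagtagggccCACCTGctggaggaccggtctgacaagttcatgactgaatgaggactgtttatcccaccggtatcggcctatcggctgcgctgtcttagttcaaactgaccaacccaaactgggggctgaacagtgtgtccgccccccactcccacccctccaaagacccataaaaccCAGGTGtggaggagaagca
Krt7: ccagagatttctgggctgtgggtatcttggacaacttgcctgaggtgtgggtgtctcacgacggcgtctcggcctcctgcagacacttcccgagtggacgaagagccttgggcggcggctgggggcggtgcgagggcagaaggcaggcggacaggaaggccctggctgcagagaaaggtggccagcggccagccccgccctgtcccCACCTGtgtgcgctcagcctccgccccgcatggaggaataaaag
Cldn4: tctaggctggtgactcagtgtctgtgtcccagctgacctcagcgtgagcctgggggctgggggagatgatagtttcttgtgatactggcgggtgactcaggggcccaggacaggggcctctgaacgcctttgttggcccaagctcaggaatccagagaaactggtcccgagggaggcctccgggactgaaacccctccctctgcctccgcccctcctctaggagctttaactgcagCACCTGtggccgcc
Rab25: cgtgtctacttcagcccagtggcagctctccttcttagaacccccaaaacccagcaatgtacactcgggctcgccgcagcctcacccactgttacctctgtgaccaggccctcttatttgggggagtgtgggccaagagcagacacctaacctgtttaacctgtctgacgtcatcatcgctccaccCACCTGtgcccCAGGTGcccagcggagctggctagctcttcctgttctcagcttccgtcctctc
Ap1m2: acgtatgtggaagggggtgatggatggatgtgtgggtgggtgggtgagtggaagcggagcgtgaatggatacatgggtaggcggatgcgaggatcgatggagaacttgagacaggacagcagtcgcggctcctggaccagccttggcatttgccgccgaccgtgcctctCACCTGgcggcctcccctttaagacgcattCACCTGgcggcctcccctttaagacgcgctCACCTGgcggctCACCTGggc
The windows are chr17:87635729-87635978 on the plus strand, chr15:101412153-101412402 on the plus strand, and chr5:134946935-134947184, chr3:88548280-88548529 and chr9:21312334-21312583 on the minus strand. Counted from the first base of a match to the start, matches lay 187 and 19 bases before the start of Epcam, 44 before Krt7, 14 before Cldn4, 64 and 53 before Rab25, and 81, 51, 21 and 9 before Ap1m2. The start used for Ap1m2 lies inside its listed gene span (chr9:21294615-21312349), so the end of that window overlaps the span. Rab25 stood at 97, 63.5 and 64.6 TPM in the parental libraries, 0 in all 3 e1 libraries and 0.0704, 0.0835 and 0.0828 in e2. Ap1m2 stood at 51.8, 31.3 and 30.8 TPM in the parental libraries and 0 in all 6 escape libraries.

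A single promoter window of 300 bases, from 250 before to 50 after the start, was held for 7820 of the 12769 genes tested and 3546 of the 5828 shared genes. CAGGTG on either strand occurred in 17.11% of the windows of all genes tested, in 12.79% of shared higher genes, in 15.72% of genes outside the rule and in 25.76% of shared lower genes. The share went up with the size of the loss, to 34.52% at a mean log2 difference of -1 or below, 41.99% at -2 or below, and 55.0% (33 of 60) among genes switched off as defined below. Among shared higher genes it was 16.03% (92 of 574) at a difference of 1 or more, 14.43% (28 of 194) at 2 or more and 8.0% (2 of 25) in those switched on, with no such order. The E-box CAGCTG, which differs in its middle bases, showed no such spread: 14.09% of all tested, 14.47% of higher, 14.04% of lower and 15% of switched-off genes.

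**Figure D2:**
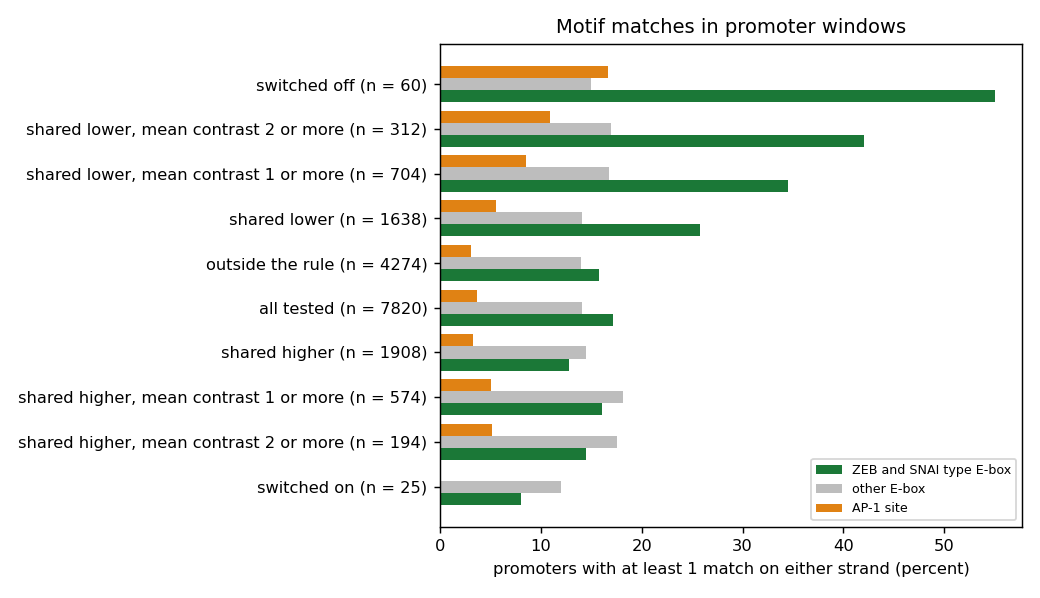
Share of promoter windows with at least 1 match on either strand, in percent, by gene set (number of windows in brackets). Green bars are the E-box bound by ZEB and SNAI factors, grey bars the other E-box, orange bars the AP-1 site. The green bars lie between 8.0 and 17.11% in the sets of higher genes, all genes tested and genes outside the rule, and lengthen from 25.76% in shared lower genes to 55.0% in genes switched off, while the grey bars stay between 12 and 18.12%.

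Promoters of the strongly lower genes also differed in base composition. The median count of CpG was 21 per window over all genes tested, 11.5 among genes lower by 2 or more and 8.5 among those switched off, against 8 among those switched on. Split at 21 CpG, CAGGTG was held by 50% (22 of 44) of switched-off promoters below and 68.8% (11 of 16) at or above, where all tested genes had 18.4 and 15.9%. The AP-1 site TGACTCA was in 3.63% of all tested, 10.9% of genes lower by 2 or more and 16.67% of those switched off, all 10 of the latter in promoters below 21 CpG. Among all 22862 single windows of the sequence table, expressed or not, CAGGTG occurred in 20.02%. Other motifs were searched on both strands. Shares in all tested, shared higher and shared lower genes were 1.42, 1.31 and 2.08% for CATATG, 11.65, 10.95 and 13.86% for GGAATG (TEAD), 29.1, 24.53 and 28.63% for GGAAGT (ETS type), and 6.96, 7.76 and 8.55% for TATAAA. AACCGGTT (GRHL type) and 1 spelling of the SRF site, the CArG box, were under 0.5% in each. No motif searched contains another. A match is a string of letters, and binding was not measured.

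Factors of the mesenchymal transition were higher in 20 of 34 tested and lower in 5 (median 0.93). Snai1, a repressor of Cdh1 (Snail), stood at 0.902, 0.356 and 0.244 TPM in the parental libraries, 29.3, 31.9 and 33.8 in e1 and 12.5, 12.4 and 13.1 in e2. Twist1, a helix-loop-helix factor, stood at 1.54, 1.33 and 1.596 TPM in the parental libraries, 38.8, 47.9 and 46.9 in e1 and 31.1, 31.2 and 34.02 in e2, and Twist2 differed by 3.73 ± 0.11. Both factors were high in each escape library. Zeb1, already present in parental cells, stood at 4.05, 5.08 and 5.32 TPM in the parental libraries, 12.01, 12.4 and 11.96 in e1 and 11.04, 10.4 and 11.1 in e2 (1.10 ± 0.08). Its paralog Zeb2 stood at 0.854, 0.7204 and 0.6396 TPM in the parental libraries, 8.89, 6.72 and 7.06 in e1 and 8.603, 8.08 and 9.06 in e2 (2.38 ± 0.09). For these factors no escape library overlapped the parental range, and Zeb1 differed the least. Prrx1, a homeobox factor of mesenchyme, was unequal between the lines, at 0.174, 0.157 and 0.2003 TPM in the parental libraries, 0.961, 0.984 and 1.06 in e1 and 72.9, 71 and 70.2 in e2. The lower genes included Id1 (-2.33 ± 0.13) and Id2 (-1.90 ± 0.12), inhibitors of basic helix-loop-helix factors. Msx2, a homeobox factor, stood at 3.58, 2.895 and 3.36 TPM in the parental libraries, 0 in all 3 e1 libraries and 0, 0 and 0.0366 in e2. Of the 34, 10 entered only through escape libraries, and of the 23 present on both sides 11 were higher and 4 lower.

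Collagen and matrix glycoprotein genes were mostly higher. Collagens were higher in 14 of 19 and lower in 1 (median 2.04), and matrix glycoproteins and crosslinkers were higher in 34 of 43 and lower in 1 (median 2.23). Col1a2, a chain of fibrillar collagen I, stood at 0 in all 3 parental libraries, 108, 119.9 and 119.5 TPM in e1 and 84.3, 78.7 and 83.01 in e2. Col3a1, of collagen III, stood at 0 in all 3 parental libraries, 51.5, 88.96 and 89.1 TPM in e1 and 54.7, 52.96 and 53.4 in e2. Mgp, a matrix Gla protein that limits calcification, stood at 0 in all 3 parental libraries, 86.5, 117 and 114 TPM in e1 and 146, 146 and 137 in e2. All 3 parental libraries listed these genes at 0, so no fold is given. Col1a1, the other collagen I chain, stood at 0.54, 0.354 and 0.4001 TPM in the parental libraries, 132, 87.3 and 89.8 in e1 and 35.6, 33.99 and 34.7 in e2, with e1 above e2. Aebp1, a collagen-binding matrix protein (5.92 ± 0.12), Fkbp10 (5.25 ± 0.06) and Serpinh1 (2.19 ± 0.06), both chaperones of collagen folding, were higher as well. The exceptions were Col27a1, a fibrillar collagen of cartilage (-1.50 ± 0.06), and Loxl4, a lysyl oxidase (-1.58 ± 0.05), which were lower in both lines. Of the 43 matrix glycoprotein genes 20, and of the 19 collagens 8, entered only through escape libraries. Among those present on both sides, 14 of 23 and 6 of 10 were higher, against 22.1% of all such genes.

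Vim, the intermediate filament vimentin, stood at 574, 936 and 901 TPM in the parental libraries, 3275, 3650.0 and 3646 in e1 and 3674, 3501 and 3612 in e2 (2.18 ± 0.14). S100a4, a calcium-binding protein of motile and fibroblast-like cells, stood at 136, 147 and 149.8 TPM in the parental libraries, 3982, 5911 and 5866 in e1 and 4788, 4726 and 4584 in e2 (5.08 ± 0.11), with e2 minus e1 at -0.14 ± 0.13, adjusted p = 0.373. For S100a4 the difference between the lines did not pass. Contractile and cytoskeletal genes of mesenchymal cells were higher in 14 of 25 and lower in 2 (median 0.80). Of the 25, 6 entered only through escape libraries, and of the 19 present on both sides 8 were higher and 2 lower. Acta2, smooth muscle actin, stood at 0.0491, 0.0949 and 0.0292 TPM in the parental libraries, 358, 217 and 213 in e1 and 21.97, 21.03 and 20.9 in e2. Tagln, an actin-binding protein, stood at 0.671, 0.9304 and 0.748 TPM in the parental libraries, 166, 56.1 and 56.8 in e1 and 20.6, 19.99 and 18.4 in e2. Both were far higher in e1 than in e2, and e1 library 1 was the highest library for both. Cdh2, N-cadherin, stood at 0.365, 0.595 and 0.674 TPM in the parental libraries, 34.1, 36.5 and 34.3 in e1 and 30.99, 30.2 and 29.8 in e2. Pdgfrb, a receptor of fibroblasts and pericytes, stood at 0 in all 3 parental libraries, 14.2, 25.8 and 25.6 TPM in e1 and 23.3, 21.5 and 22.2 in e2. Ddr2, a collagen receptor, stood at 0.06497, 0.01398 and 0.043 TPM in the parental libraries, 35.9, 31.2 and 30.9 in e1 and 38.02, 38.3 and 37.6 in e2. All 3 were under 1 TPM in every parental library.

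Most tested fibroblast markers moved with these groups. Of 16 listed, 13 were tested, 11 were higher and 0 lower, with 12 entering only through escape libraries. Fbln1, present on both sides, was outside the rule. It reached 19.39 TPM in parental libraries and 19.29 in e1, against 8.287 to 9.622 in e2. Pdpn was outside the rule too, at or below 0.062 TPM in e1 and at 69.94 to 70.96 in e2. The summed level of the listed markers was 17.64 to 20.74 TPM in parental libraries, 346.98 to 370.7 in e1 and 551.42 to 569.38 in e2. Fbln1 made up most of the parental sum. Lum was listed at 0 in all 9 libraries, Fap stayed at or below 0.414 TPM and Pi16 at or below 0.027 TPM. Of 10 smooth muscle and pericyte markers 5 were tested and 4 were higher. The 10 summed to 4.46 to 6.95 TPM in parental libraries, 246.67 to 407.06 in e1 and 44.72 to 46.56 in e2, almost all from Acta2, Cspg4 and Mcam. Myh11 was at or below 0.088 TPM and Des at or below 0.177 TPM in every library. In e1, Actg2 and Cnn1 stayed at or below 0.595 and 0.717 TPM. Of the 5 tested, 4 entered only through escape libraries. Of 14 macrophage and myeloid markers 3 were tested, 1 higher and 1 lower. They summed to 79.73 to 83.18 TPM in parental libraries, 9.09 to 15.39 in e1 and 63.4 to 69.36 in e2, mostly from Cd14, an endotoxin co-receptor, and in parental cells also Mrc1, a mannose receptor, while the common leukocyte antigen Ptprc was at or below 0.11 TPM. T and NK cell markers summed to at most 2.24 TPM in any library, with Cd3e listed at 0, and B cell markers to at most 1.49. Of 12 endothelial markers 4 were tested, 3 higher and 0 lower. The 12 summed to 13.25 to 17.63 TPM in parental libraries, 24.76 to 27.84 in e1 and 92.48 to 93.14 in e2. Of the 4 tested, 2 entered only through escape libraries. Plvap, of endothelial vesicles, and Flt1, a VEGF receptor, made up most of the sum in e2, and Pecam1 was at or below 0.261 TPM. Of 12 tested duct markers 10 were lower, Sox9 was higher, and Spp1, the secreted protein osteopontin, was outside the rule. The duct markers summed to 10719.75 to 11245.86 TPM in parental libraries, 2935.01 to 3248.38 in e1 and 20091.3 to 20710.96 in e2, where Spp1 alone was at 18230 TPM or more. Pdx1, a pancreatic identity factor, was among the lower genes but stayed at 54.9 TPM or more in e2. Of 15 acinar markers only Cela1 was tested, and no endocrine marker was. The part of any such cells in the result was not tested.

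**Figure D3:**
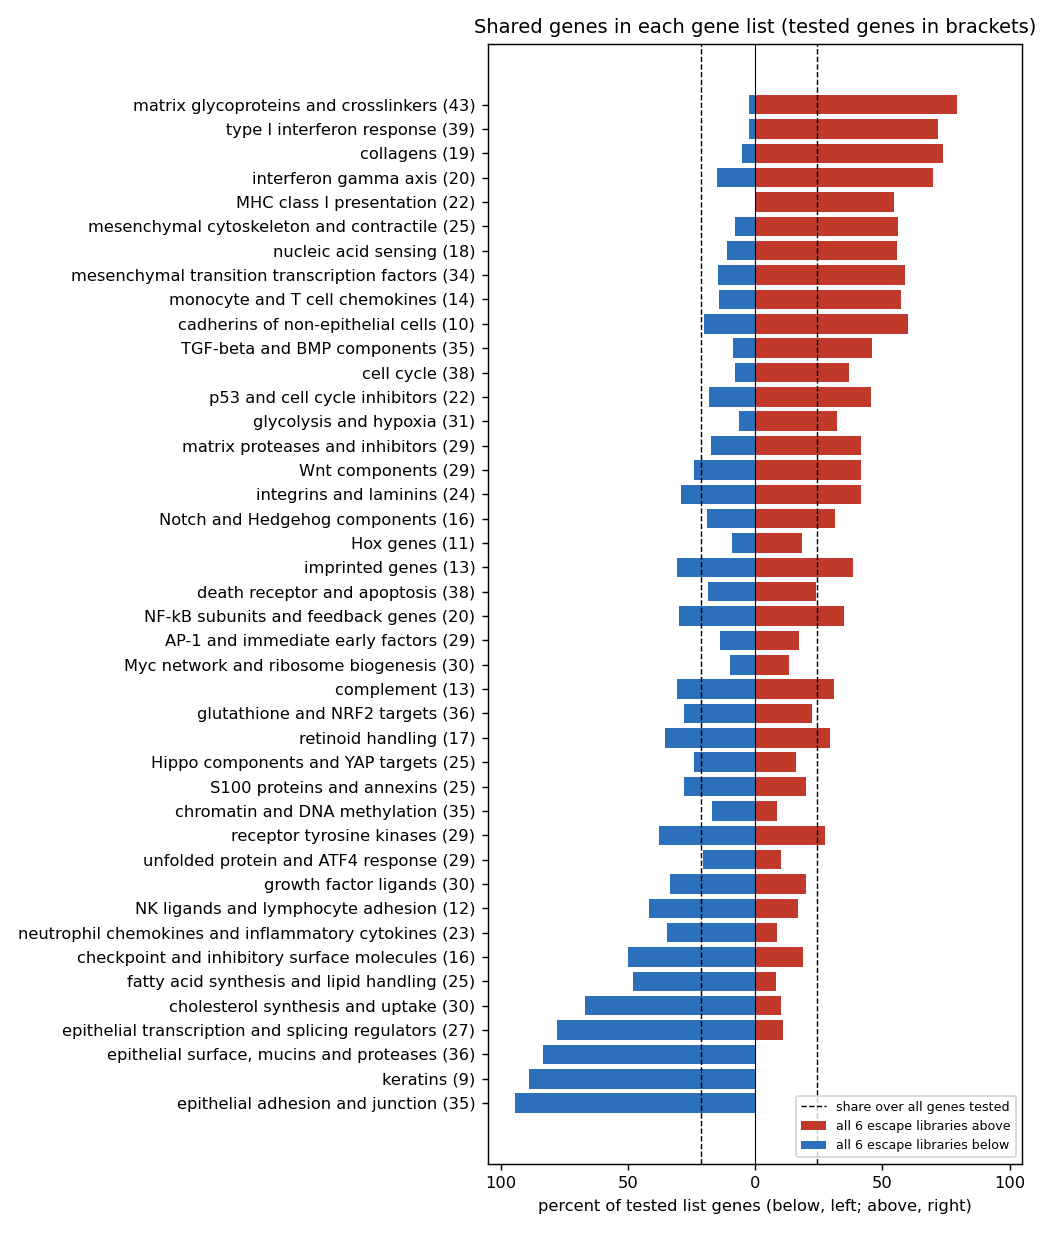
Percent of tested genes of each list that were lower (left, blue) or higher (right, red) in all 6 escape libraries than in all 3 parental libraries. Dashed lines mark the shares over all genes tested, 21.4 and 24.2%, and the number tested is in brackets. Epithelial lists fill the bottom rows, with 94.3% of junction genes lower, and matrix and interferon lists the top rows, with 79.1% of matrix glycoproteins higher.

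Some genes went from absent to present or the reverse. A gene was counted as switched on when each parental library was under 1 TPM and each escape library at 10 TPM or more, and as switched off in the opposite case. By this count 39 genes were switched on and 100 off. The 39 held 3 collagens (Col1a1, Col1a2, Col3a1), 6 matrix glycoproteins (among them Mgp, Aebp1 and Grem1) and the receptors Pdgfrb and Ddr2, and 17 belonged to none of the lists. The 100 held 7 junction genes and 12 epithelial surface genes, and 72 belonged to none of the lists. Among the latter, Mal2, a protein of apical membrane transport, stood at 117, 80.1 and 76.9 TPM in the parental libraries, 0, 0 and 0.0282 in e1 and 0.308, 0.338 and 0.417 in e2. Il5ra, a cytokine receptor chain, stood at 67.5, 136 and 129.5 TPM in the parental libraries, 0.592, 0.409 and 0.437 in e1 and 0.455, 0.262 and 0.516 in e2. Each was under 1 TPM in all 6 escape libraries. The brain-expressed X-linked gene Bex1 stood at 35.8, 27.99 and 27.9 TPM in the parental libraries and 0 in all 6 escape libraries. Among those switched on outside the lists, Syt13, a synaptotagmin of vesicle traffic, stood at 0.132, 0.222 and 0.0782 TPM in the parental libraries, 39, 55.04 and 53.4 in e1 and 84.7, 82.4 and 84.9 in e2. The X-linked gene Xlr, of a lymphocyte-regulated family with near copies, stood at 0.2103, 0.307 and 0.167 TPM in the parental libraries, 40.9, 47.4 and 47.2 in e1 and 96.5, 96.9 and 93.2 in e2.

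Interferon-stimulated genes were higher in both untreated lines. Of 39 tested genes of the type I response 28 were higher and 1 lower (median 1.34). Ifitm3, a membrane protein that blocks virus entry (chr7:141009590-141010744), had the largest mean log2 difference of the higher genes at 9.34 ± 0.08 and stood at 0.256, 0 and 0 TPM in the parental libraries, 539, 626 and 621 in e1 and 822, 811 and 816 in e2. Its neighbor Ifitm1 stood at 0.121, 0.116 and 0 TPM in the parental libraries, 204, 366 and 382 in e1 and 81.5, 79.3 and 79.1 in e2. The Ifitm genes are close paralogs, and reads they share could be split between them. Isg15, a ubiquitin-like modifier, stood at 1.02, 0.996 and 1.23 TPM in the parental libraries, 66.5, 28.1 and 28.4 in e1 and 32.3, 32.3 and 30.9 in e2 (4.10 ± 0.24). Its e1 library 1 was the highest of all 9. The lower gene was Isg20, an exonuclease (-1.50 ± 0.10). Of the 39 genes, 19 entered only through escape libraries, and of the 20 present on both sides 12 were higher and 1 lower.

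The interferon gamma axis had 14 of 20 higher and 3 lower (median 1.33). Of the 20, 9 entered only through escape libraries, and of the 11 present on both sides 7 were higher and 3 lower. Gbp2 (3.18 ± 0.08) and Gbp3 (3.10 ± 0.18), guanylate-binding proteins of cell-autonomous defense, and the chemokine Cxcl10 (2.83 ± 0.28) were higher. The 3 lower genes were Jak2, Ifngr1 and the factor Irf2, while the receptor chain Ifngr2 and the kinase Jak1 were among the higher ones. Jak2, a kinase of the interferon gamma receptor, stood at 49.7, 54.1 and 52.6 TPM in the parental libraries, 6.97, 10.1 and 9.51 in e1 and 34.2, 33.9 and 34 in e2. Ifngr1, the ligand-binding receptor chain, stood at 88.7, 101.3 and 97.1 TPM in the parental libraries, 41.6, 47.1 and 43.03 in e1 and 45.4, 42.7 and 44.9 in e2. For Ifngr1 e2 minus e1 did not pass (0.02 ± 0.07, adjusted p = 0.851), whereas Jak2 was lower in e1 than in e2 (e2 minus e1 1.84 ± 0.11, adjusted p = 4.87e-07). Nucleic acid sensing genes were higher in 10 of 18 and lower in 2. Of the 18, 3 entered only through escape libraries, and of the 15 present on both sides 8 were higher and 2 lower. Ddx58, which encodes the RNA sensor RIG-I, stood at 2.24, 2.19 and 2.15 TPM in the parental libraries, 18.03, 14.1 and 14.2 in e1 and 33.5, 30.6 and 31.9 in e2. Mb21d1, which encodes the DNA sensor cGAS, stood at 0.277, 0.377 and 0.323 TPM in the parental libraries, 12.5, 10.01 and 8.88 in e1 and 6.94, 7.02 and 6.17 in e2. Both sensors were higher without overlap. Tlr3, an endosomal sensor of double-stranded RNA, was lower (-2.01 ± 0.12).

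MHC class I presentation genes were higher in 12 of 22 and lower in 0 (median 1.04). Of the 22, 6 entered only through escape libraries, and of the 16 present on both sides 7 were higher and 0 lower. B2m, the light chain of MHC class I (chr2:122147687-122153082), stood at 206, 189 and 182 TPM in the parental libraries, 832, 634 and 632 in e1 and 3072, 3113 and 3002 in e2. The gain was larger in e2 (e2 minus e1 2.14 ± 0.10, adjusted p = 1.05e-07). Psmb8, a subunit of the immunoproteasome, stood at 0.227, 0.219 and 0.202 TPM in the parental libraries, 7.62, 1.56 and 2.46 in e1 and 21.6, 22.99 and 21.96 in e2. Tap2, of the peptide transporter, stood at 0.8395, 0.614 and 0.848 TPM in the parental libraries, 5.54, 3.94 and 4.22 in e1 and 14.6, 15.7 and 16.4 in e2. Both were under 1 TPM in every parental library and most abundant in e2. The heavy chain H2-K1 did not meet the rule, at 150.0, 149 and 135 TPM in the parental libraries, 48.6, 18.5 and 17.02 in e1 and 243, 242 and 249.9 in e2. It was lower than parental in e1 and higher in e2. The 10 genes outside the rule also included the heavy chains H2-Q4 and H2-Q7 and the chaperones Calr and Pdia3, while the heavy chain H2-D1 was among the 12 higher. H2 genes are near copies of one another, so their values are uncertain. The type I, interferon gamma and MHC class I lists had 26 of 39, 13 of 20 and 16 of 22 genes higher after each library was centered by chromosome, as described below.

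Chemokines for monocytes and T cells were higher in 8 of 14 and lower in 2, with 7 entering only through escape libraries and 1 only through parental libraries. Of the 6 present on both sides 3 were higher and 1 lower. Ccl2, which draws monocytes, stood at 0.762, 0.458 and 0.453 TPM in the parental libraries, 27.3, 39.2 and 35.8 in e1 and 96.5, 96.4 and 92.99 in e2. Ccl7 and Ccl5, of the same family, were also higher. Cxcl16, a transmembrane chemokine, stood at 125, 120.3 and 117 TPM in the parental libraries, 5.67, 3.59 and 4.61 in e1 and 29.4, 30.2 and 25.7 in e2. Ccl2 and Cxcl16 thus differed in opposite directions. Chemokines for neutrophils and inflammatory cytokines were lower in 8 of 23 and higher in 2 (median -0.61). Of the 23, 4 entered only through parental and 2 only through escape libraries. Among the 17 present on both sides 4 were lower and 2 higher, against 20% and 22.1% of all such genes. Cxcl5, which draws neutrophils, stood at 93.9, 56.01 and 51.8 TPM in the parental libraries, 0.641, 1.47 and 1.14 in e1 and 21.5, 21.1 and 18.6 in e2. Its neighbor Ppbp stood at 65.04, 28.98 and 28.9 TPM in the parental libraries, 0, 0.431 and 0.163 in e1 and 0.275, 0.407 and 0.565 in e2. Il1rn, the interleukin 1 receptor antagonist, stood at 100.7, 108 and 102 TPM in the parental libraries, 0.257, 0.271 and 0.289 in e1 and 43.2, 44.8 and 43.1 in e2. Ppbp was under 1 TPM in all 6 escape libraries, while Cxcl5 and Il1rn were lower in e1 than in e2 (e2 minus e1 3.38 ± 0.22, adjusted p = 8.35e-07 and 5.14 ± 0.05, adjusted p = 3.18e-11). Clu, a secreted chaperone and complement inhibitor, stood at 2946, 2796 and 2751 TPM in the parental libraries, 75.9, 66.4 and 67.2 in e1 and 320.0, 324 and 323 in e2 (-4.23 ± 0.05).

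Checkpoint and inhibitory surface molecules were lower in 8 of 16 and higher in 3 (median -0.41). Of the 16, 2 entered only through parental and 2 only through escape libraries, and of the 12 present on both sides 6 were lower and 1 higher. Ceacam1, an adhesion molecule and inhibitory ligand, stood at 6.41, 8.28 and 7.96 TPM in the parental libraries, 0.03502, 0.0521 and 0.0799 in e1 and 0.132, 0.125 and 0.197 in e2. Lgals9, the galectin-9 gene, stood at 133, 150.5 and 150.5 TPM in the parental libraries, 32.7, 23.4 and 22.2 in e1 and 42.5, 44.1 and 43.1 in e2. Lgals1, an immunosuppressive galectin, was higher, at 1668, 1672 and 1628 TPM in the parental libraries, 3807, 4048 and 4023 in e1 and 5396, 5474 and 5173 in e2. The 2 galectins differed in opposite directions. Cd274, which encodes PD-L1, did not meet the rule, at 1.45, 1.62 and 1.97 TPM in the parental libraries, 0.868, 0.491 and 0.682 in e1 and 2.28, 2.1 and 2.36 in e2. Of 12 ligands for NK cells and lymphocyte adhesion, 5 were lower and 2 higher. Icam1, a ligand of leukocyte integrins, stood at 17.5, 17.2 and 15.9 TPM in the parental libraries, 2.53, 2.45 and 2.32 in e1 and 1.87, 2.53 and 2.65 in e2. Vcam1, an adhesion molecule for another integrin, stood at 17.4, 16.6 and 14.8 TPM in the parental libraries, 67.4, 90.2 and 91.3 in e1 and 175, 172 and 169 in e2. Icam1 was lower and Vcam1 higher, both without overlap, and Raet1d, a ligand of the NK receptor NKG2D, was lower (-2.46 ± 0.10). In the death receptor and apoptosis list 9 of 38 were higher and 7 lower, shares near those of all genes. Fas, the death receptor, was higher (1.92 ± 0.14), and Tnfrsf21, another death receptor, lower (-3.05 ± 0.13). Casp8 did not meet the rule, at 43.8, 50.6 and 49.04 TPM in the parental libraries, 22.6, 26.8 and 26.5 in e1 and 53.03, 55.01 and 51.7 in e2.

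Genes of cholesterol synthesis and uptake were mostly lower in both lines. Those of fatty acid and lipid handling were more often lower than higher. Of 30 genes of cholesterol synthesis and uptake, 20 were lower and 3 higher (median -0.77), and just 1 had entered through one side only. Tm7sf2, a sterol reductase, was lower without overlap, at 45.2, 37.8 and 35.1 TPM in the parental libraries, 5.91, 5.67 and 5.65 in e1 and 7.22, 8.68 and 7.65 in e2 (-2.38 ± 0.09), with e2 minus e1 at 0.39 ± 0.10, adjusted p = 0.0057. Abca1, which exports cholesterol, was higher, at 0.256, 0.107 and 0.0968 TPM in the parental libraries, 3.995, 7.32 and 7.33 in e1 and 33.6, 32.2 and 33.1 in e2. The other higher genes were Scap (0.40 ± 0.06) and Srebf1 (0.20 ± 0.04), both of the sterol-sensing system. Fatty acid and lipid handling genes were lower in 12 of 25 and higher in 2 (median -0.63). Fabp5, a fatty acid carrier, stood at 414, 289.7 and 290.4 TPM in the parental libraries, 32.9, 28.6 and 25.1 in e1 and 72.7, 71.8 and 70.5 in e2. Dgat2 of triglyceride synthesis (-2.20 ± 0.06) and Pparg, a lipid nuclear receptor (-1.78 ± 0.19), were lower as well. Plin2, a coat protein of lipid droplets, was higher, at 242, 238 and 232 TPM in the parental libraries, 666, 613 and 617 in e1 and 740.3, 712 and 716 in e2.

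Retinoid handling had 5 of 17 genes higher and 6 lower, and of the 11 present on both sides 1 was higher and 4 lower. Rdh10, which makes retinaldehyde, stood at 377, 369 and 359 TPM in the parental libraries, 36.8, 30.3 and 30.9 in e1 and 50.7, 50.3 and 49.9 in e2. Rbp4, the retinol carrier (-5.33 ± 0.15), and Aldh1a1, which makes retinoic acid (-3.17 ± 0.15), were lower too. The retinoic acid binding protein Crabp2 was higher, at 0.165, 0.159 and 0.196 TPM in the parental libraries, 104, 173 and 164 in e1 and 6.303, 7.56 and 5.69 in e2, and e1 lay far above e2. Glutathione and NRF2 target genes were also split, with 8 of 36 higher and 10 lower, and 14 higher without e1 library 1. Gpx2, an epithelial glutathione peroxidase, stood at 55.4, 35.5 and 34.2 TPM in the parental libraries, 0.0587, 0 and 0 in e1 and 0, 0 and 0.0822 in e2. Gpx8, an endoplasmic reticulum peroxidase, stood at 35.8, 26.99 and 28.3 TPM in the parental libraries, 143, 136 and 135 in e1 and 241, 235 and 224 in e2, and the transferase Gstm1 was higher (2.40 ± 0.18). The transferases Gsta1 (-5.17 ± 0.41) and Gsta4 (-2.50 ± 0.38) were lower. Gst genes within a class are close copies and their values are uncertain. Glycolysis and hypoxia genes were higher in 10 of 31 and lower in 2, among the former Ldhb, of lactate dehydrogenase (3.26 ± 0.14), and Pfkp, a phosphofructokinase (2.12 ± 0.06). Vegfa (-1.57 ± 0.06) and the glucose transporter Slc2a1 (-0.64 ± 0.04) were lower.

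Among signaling genes, receptor tyrosine kinases were lower in 11 of 29 and higher in 8. Of the 29, 6 entered only through parental and 4 only through escape libraries. Among the 19 present on both sides 5 were lower and 4 higher, against 20% and 22.1% of all such genes. Erbb3, a partner of the epithelial ERBB receptors, stood at 12.7, 9.53 and 9.92 TPM in the parental libraries, 0.108, 0.181 and 0.191 in e1 and 0.975, 0.874 and 1.14 in e2. Fgfr1, a receptor of mesenchymal cells, stood at 3.04, 1.51 and 1.71 TPM in the parental libraries, 79.7, 69.5 and 71.1 in e1 and 42.01, 38.3 and 41.1 in e2. Erbb3 was lower and Fgfr1 higher in both lines. Growth factor ligands were lower in 10 of 30, including Tgfa, an EGF receptor ligand (-2.39 ± 0.08), and Pgf, of the VEGF family (-3.14 ± 0.17), and higher in 6, including Vegfd (2.97 ± 0.25). Of the 30, 6 entered only through escape and 2 only through parental libraries. Among the 22 present on both sides 8 were lower and 1 higher. TGF-beta and BMP components were higher in 16 of 35 and lower in 3 (median 0.46). Of the 35, 8 entered only through escape libraries, and of the 27 present on both sides 10 were higher and 3 lower. Grem1, a secreted BMP antagonist, stood at 0.121, 0.03897 and 0 TPM in the parental libraries, 23.9, 28.1 and 29.8 in e1 and 491, 473 and 481 in e2. The ligand Tgfb3 stood at 4.61, 3.87 and 3.68 TPM in the parental libraries, 56.9, 83.4 and 78.8 in e1 and 33.05, 31.9 and 29.8 in e2. Grem1 was highest in e2 and Tgfb3 in e1, and the co-receptor Tgfbr3 was higher in both (3.62 ± 0.07). Of the lower members, Smad6, an inhibitor of BMP signaling, differed by -1.38 ± 0.16 and the activin receptor Acvr2a by -0.95 ± 0.09.

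Wnt components were higher in 12 of 29 and lower in 7, but 11 entered only through escape libraries, and of the 17 present on both sides 2 were higher and 6 lower. Wnt7a, an epithelial ligand, stood at 38.6, 32.9 and 31.3 TPM in the parental libraries, 0.0518, 0 and 0.0244 in e1 and 4.86, 4.99 and 4.33 in e2. Wnt10b stood at 0.488, 0.2496 and 0.273 TPM in the parental libraries, 22.1, 29.1 and 30.9 in e1 and 16.2, 16.4 and 15.7 in e2. The ligands thus differed in direction, and Wnt5a, of non-canonical signaling, was higher (2.60 ± 0.09). Of 16 Notch and Hedgehog genes 5 were higher and 3 lower. The lower ones were all Notch ligands, Jag1 (-2.11 ± 0.08), Jag2 (-2.39 ± 0.06) and Dll4 (-1.84 ± 0.13), while the receptor Notch2 was higher (1.55 ± 0.07). Integrins and laminins had 10 of 24 higher and 7 lower. Of the 24, 5 entered only through escape and 4 only through parental libraries, and of the 15 present on both sides 6 were higher and 3 lower. Lamb3, a chain of the epithelial basement membrane laminin, stood at 35.2, 60.4 and 59.3 TPM in the parental libraries, 0.5202, 0.378 and 0.458 in e1 and 0.427, 0.399 and 0.338 in e2. The collagen-binding Itga2 (-3.89 ± 0.10) was lower too. The fibronectin receptor chain Itga5 was higher, at 11.2, 10.2 and 10.2 TPM in the parental libraries, 51.4, 37.9 and 38.4 in e1 and 30.9, 27.9 and 28.8 in e2.

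Cell cycle genes were higher in 14 of 38 and lower in 3, and 9 and 2 after centering by chromosome. Cdk4, the kinase that drives entry into S phase, stood at 381, 372 and 366 TPM in the parental libraries, 764, 795 and 783 in e1 and 782, 789 and 761 in e2, a mean log2 difference of 1.06 ± 0.03 with e2 minus e1 at -0.01 ± 0.04, adjusted p = 0.884. The proliferation marker Mki67 did not meet the rule, at 39.1, 43.4 and 45.4 TPM in the parental libraries, 45.8, 43 and 45.1 in e1 and 61.6, 58.2 and 60.05 in e2. Myc did not either, at 150.0, 169.5 and 165 TPM in the parental libraries, 549, 418 and 411 in e1 and 81.8, 79.8 and 79.2 in e2, being higher than parental in e1 and lower in e2. In lists of the Myc network and ribosome biogenesis (4 higher and 3 lower of 30), AP-1 and immediate early factors (5 and 4 of 29), chromatin and DNA methylation (3 and 6 of 35) and Hippo components (4 and 6 of 25), no share of higher genes exceeded that of all genes tested. Without e1 library 1 the Myc list had 6 higher and 8 lower and the chromatin list 7 and 7. The unfolded protein list had 3 higher and 6 lower of 29, and 13 lower without that library. Jun, an AP-1 subunit, was higher (1.91 ± 0.08), and Atf3, a stress-induced factor, lower (-2.01 ± 0.13).

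The size of the shared change often differed between the lines. This comparison, e2 minus e1, was not used to choose the genes. It passed at an adjusted p under 0.05 for 70.3% of all genes tested (40.6% higher and 29.7% lower in e2) and for 77.9% of genes outside the rule. Among the 3090 shared higher genes, e2 had the larger change in 1160, e1 in 833, and 1097 (35.5%) did not pass. Among the 2738 shared lower genes, e1 had the larger change in 1043, e2 in 541, and 1154 (42.1%) did not pass. At a mean log2 difference of 2 or more in size the directions parted further: of 354 higher genes, 208 changed more in e2 and 83 in e1, and 63 (17.8%) did not pass, while of 556 lower genes 219 changed more in e1 and 67 in e2, and 270 (48.6%) did not pass. This count holds genes at or near 0 in both lines, between which no further difference can be seen. With all 3 group means at 10 TPM or more, 12 of 35 higher genes (34.3%) and 10 of 33 lower genes (30.3%) of that size did not pass. The difference in the share not passing was thus not seen away from 0. A p that misses the threshold does not show that a gene changed alike.

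**Figure D4:**
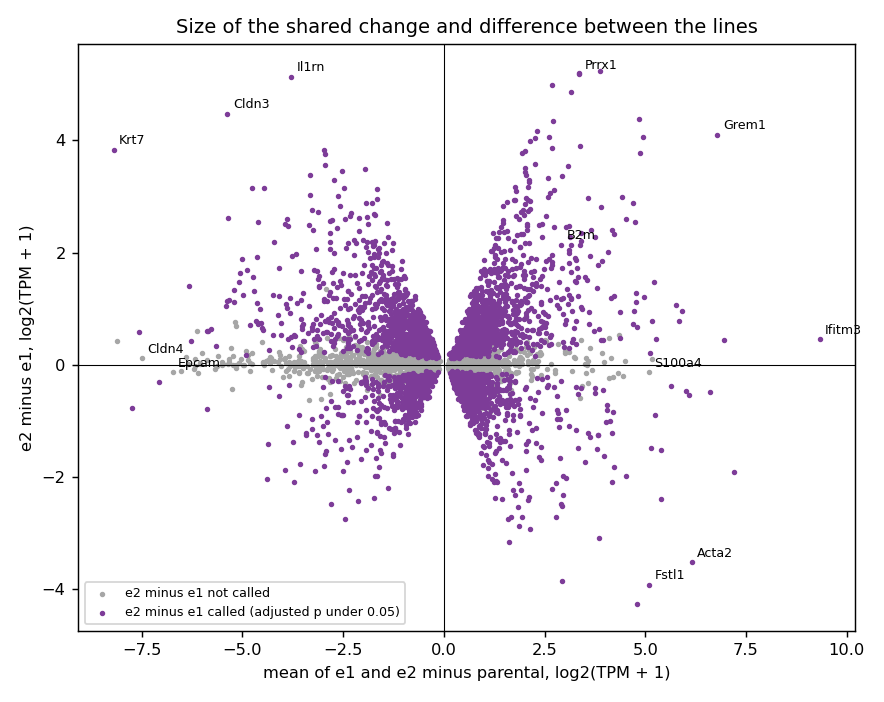
Each point is 1 of the 5828 shared genes, with the mean log2 difference of both lines from parental on the horizontal axis and e2 minus e1 on the vertical axis, both on the log2(TPM + 1) scale. Purple points passed in e2 minus e1 and grey points did not. Grey points gather along 0 on the left, where Cldn4 and Epcam lie, while Prrx1, Il1rn and Cldn3 lie above 4 and Fstl1 and Acta2 below -3.

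Among large shared changes, Cldn3, the tight junction claudin next to Cldn4, stood at 268, 239 and 225 TPM in the parental libraries, 0.336, 0.287 and 0.136 in e1 and 24.7, 27.1 and 28.9 in e2 (e2 minus e1 4.48 ± 0.09, adjusted p = 7.22e-10). Fstl1, a secreted glycoprotein, stood at 0.702, 0.0992 and 0.122 TPM in the parental libraries, 155, 177 and 179.5 in e1 and 9.95, 10.5 and 10.5 in e2 (e2 minus e1 -3.92 ± 0.15, adjusted p = 3.29e-08). Cd34, a surface sialomucin of vessels and fibroblasts, stood at 0.518, 0.636 and 0.643 TPM in the parental libraries, 13.4, 10.7 and 9.68 in e1 and 206, 200 and 199 in e2 (e2 minus e1 4.06 ± 0.10, adjusted p = 2.34e-09). In these genes, which were picked for a large e2 minus e1, the lines lay on the same side of parental but differed in level. At the other end, Flrt2, a transmembrane protein of cell guidance, stood at 0.0508, 0.0164 and 0.0202 TPM in the parental libraries, 11.3, 10.8 and 11.5 in e1 and 11.4, 11.2 and 10.8 in e2 (e2 minus e1 -0.01 ± 0.07, adjusted p = 0.939). Fmnl2, a formin that builds actin filaments, stood at 3.44, 4.19 and 4.19 TPM in the parental libraries, 16.9, 22.4 and 20.8 in e1 and 20.6, 19.3 and 20.1 in e2 (e2 minus e1 0.01 ± 0.11, adjusted p = 0.94). Vil1, the villin of microvilli, stood at 44.6, 45.5 and 46.3 TPM in the parental libraries, 0.0352, 0 and 0.0499 in e1 and 0.0418, 0.0249 and 0.0245 in e2, near 0 in both lines.

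Shared genes were unevenly spread over chromosomes. On chromosome 13, 62.1% of 509 tested genes were shared higher and 8.6% shared lower, and the median gene differed by 0.66. The share of higher genes was also large on chromosomes 12 (40.9%), 3 (38.8%), 14 (36.8%) and 4 (35.8%). Shared lower genes were 42.1% on chromosome 17, 40.4% on 19 and 36.1% on 5, where 7.4, 9.0 and 7.6% were higher. All 3 libraries of a line lay close together in these medians. Some chromosomes were shifted in one line only, such as 5 in e1 and 16 in e2. For centering by chromosome, each library's log2 values were shifted so that their median difference from the parental mean was 0 on each chromosome. Every chromosome then had 18.8 to 23.2% shared higher and 19.7 to 23.6% shared lower genes. Such near-even shares largely follow from the shift itself. Of the shared genes with a position, 2215 of 3085 higher (71.8%) and 2279 of 2732 lower (83.4%) still met the rule. The large changes depended little on this: of those of 2 or more, 97.7% and 99.8% still met it, against 48.4% and 56.5% of those under 0.5. The largest mean shift of a chromosome in a line was 0.76 (chromosome 13 in e2), so changes of 2 or more could hardly be undone by it. DNA copy number was not measured.

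**Figure D5:**
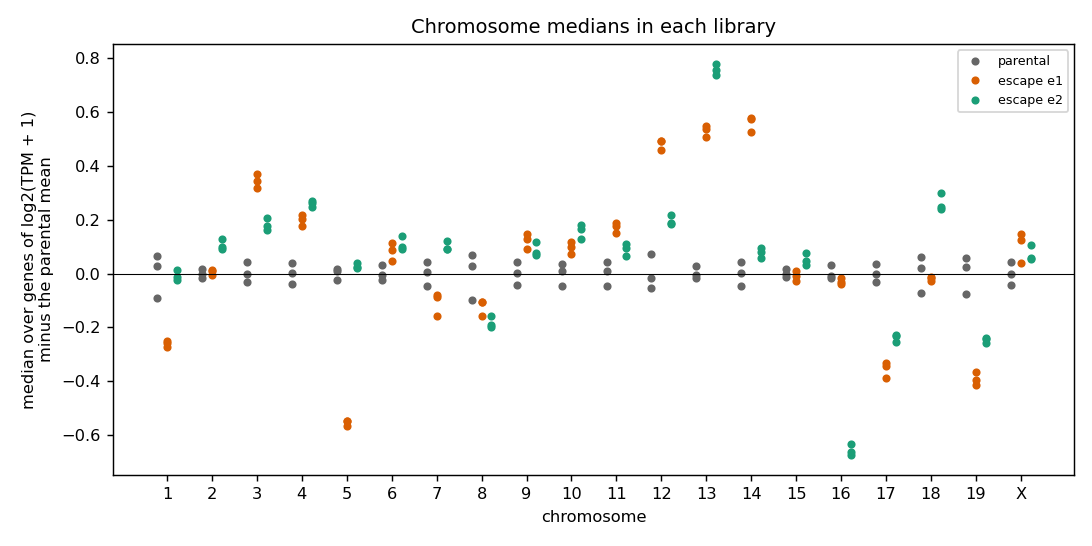
Median over tested genes of the log2(TPM + 1) value minus the parental mean, per chromosome (horizontal axis), with 1 point for each library. Grey points are parental, orange e1 and green e2 libraries. On chromosome 13 all 6 escape libraries lie above 0.5, and on chromosomes 17 and 19 all 6 lie below the parental libraries.

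Runs of 4 or more neighboring tested genes that all met the rule in 1 direction with a mean log2 difference of 1 or more in size numbered 23, of which 9 were higher and 14 lower. These genes were chosen for their place after the values were seen. On chromosome 17, Psmb9, Tap1, Psmb8 and Tap2 were higher over 34.3 kb (chr17:34182030-34216321, GRCm38.p6), by 1.88 to 3.03. On chromosome 1, the interferon-inducible DNA-binding genes Ifi204, Mndal, Ifi211, Ifi203 and Ifi205 were higher over 284.5 kb (1.05 to 2.67), and as near copies they may share reads. Cldn4, Cldn3, Abhd11 and Abhd11os were lower on chromosome 5 over 68.0 kb. On the same chromosome Afp, Rassf6 and the chemokine genes Cxcl5 and Ppbp were lower over 279.3 kb. On X, the retrotransposon-derived Rtl8c, Rtl8a and Rtl8b, Xlr and a predicted gene were higher (1.81 to 5.76).

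At the edge of the rule, the genes with a small gap between groups included Minos1, Fam60a and H2afv. Minos1 stood at 43.05, 42.8 and 41.1 TPM in the parental libraries, 43.05, 50.2 and 51.2 in e1 and 48.2, 45.7 and 47.3 in e2. H2afv stood at 47.01, 40.6 and 38.3 TPM in the parental libraries, 47.04, 76.5 and 75.8 in e1 and 122, 119 and 119 in e2. Fam60a, a lower gene, stood at 57.2, 58.8 and 58.4 TPM in the parental libraries, 57.2, 40.6 and 42.4 in e1 and 32.02, 31.9 and 30.8 in e2. In all 3 e1 library 1 was the escape library nearest to the parental range. Just outside lay Coq5, Mrps2 and Mat2b, whose groups overlapped or touched. Coq5 stood at 25.8, 29.3 and 29.1 TPM in the parental libraries, 21.5, 18.9 and 17.2 in e1 and 25.8, 24.6 and 25.6 in e2. Mrps2 stood at 40.7, 42.6 and 42.9 TPM in the parental libraries, 58.3, 52.3 and 51.3 in e1 and 48.5, 47.7 and 42.9 in e2. Mat2b stood at 58.1, 62.7 and 57.5 TPM in the parental libraries, 39.8, 52.5 and 48.8 in e1 and 57.5, 57.3 and 55.5 in e2. These edge genes carry no test.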

How the data were processed

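The 9 libraries form 3 groups, taken from the sample titles. The authors deposited TPM per gene, and in a second table the same libraries as rlog, a log2 scale. Salmon, DESeq2 and mm10 appear per the submitters' processing notes. Versions, annotation and strand setting were not given in the sources used here. Genes with 1 TPM or more in at least 3 libraries entered limma 3.58.1 (R 4.3.3) as log2(TPM + 1), with a mean per group and trended, robust empirical Bayes. P-values were two-sided and adjusted over all genes tested by the method of Benjamini and Hochberg. The limma fit of the mean contrast and of e2 minus e1, and the rule, were tried on simulated data. The other steps were not.

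The shared genes and the gene lists were chosen with earlier results of these data known, so no list is independent evidence. Named genes are, among shared genes called in both lines, the 15 with the largest difference in each direction (10 TPM or more on the higher side), up to 3 per list and direction, 8 with the largest and 8 with the smallest difference between the lines, 4 on each side of the rule's edge, up to 8 switched in each direction, and 24 fixed genes. Others, such as Jup, Pdx1, Hoxa6, marker genes of other cell types and the neighbors in runs, were chosen after their values were seen. Some genes are not reported here. Promoters and positions are from RefSeq tables of GRCm38.p6, matched by symbol, with positions for 12735 of the genes tested. The alternatives tried were no filter, a 5 TPM filter, a pseudocount of 0.1, scaling by median ratios, dropping the 10 highest genes, the rlog table, a block on library number, plain empirical Bayes, each library left out, promoters without their last 50 bases and, chosen after seeing the data, centering by chromosome and a split by CpG.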

Additional observations from a re-analysis of the deposited data

Results flagged for a closer look

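In 17 named shared genes the lines moved the same way from parental, yet e2 minus e1, in the limma fit over all genes, passed with a size of 3 or more on the log2(TPM + 1) scale. Some genes were named for a large e2 minus e1, so the 17 are a description. The share of all shared genes with such a size is not given, and at any size 70.3% of all genes tested passed. In 3 of the 17 e1 had the larger gain: Crabp2, a retinoic acid binding protein (-4.27), Fstl1, a secreted glycoprotein (-3.92), and Acta2, smooth muscle actin (-3.52). In 8 the gain was larger in e2: the endothelial vesicle protein Plvap (5.20), the homeobox factor Prrx1 (5.18), the proteoglycan Dcn (4.99), the BMP antagonist Grem1 (4.10), the growth factor Hgf (4.07), the sialomucin Cd34 (4.06), the nucleic acid sensor Zbp1 (3.06) and the protocadherin Pcdh7 (3.0). In 6 lower genes the level was higher in e2 than in e1, so that the loss was larger in e1: Il1rn (5.14), Cldn3 (4.48), Krt7 (3.83), Fxyd3 (3.83), Hs3st1 (3.77) and Cxcl5 (3.38). Fxyd3, a regulator of the sodium pump, was listed at 0 in all 3 e1 libraries, and Dcn in all 3 parental libraries, so their values are fitted differences and not folds. In e1 Dcn stood at just 0.127, 0.227 and 0.08975 TPM and Hgf at 0.448, 0.572 and 0.524 TPM. In e2 Dcn was at 34.6 TPM or more and Hgf at 23.3 TPM or more. Both thus met the rule with every e1 library under 1 TPM. Prrx1 stood at 0.174, 0.157 and 0.2003 TPM in the parental libraries, 0.961, 0.984 and 1.06 in e1 and 72.9, 71 and 70.2 in e2. Plvap stood at 0, 0 and 0.114 TPM in the parental libraries, 0.931, 0.5896 and 0.759 in e1 and 63.2, 63.9 and 63.2 in e2. In both genes the e1 libraries lay near 1 TPM or below, far below those of e2.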

How the results depend on the processing

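The counts of shared genes, of genes called in the mean contrast and of shared genes called in e2 minus e1 stayed within 1.5 times their value in all 102 alternative counts run. Shared higher genes ran from 2592 (filter of 5 TPM) to 3707 (without e1 library 1), and shared lower genes from 2211 (filter of 5 TPM) to 3439 (no filter). Leaving out each library in turn gave 3118 to 3707 shared higher and 2766 to 3222 shared lower genes, the rule being easier to meet with fewer libraries. The library numbers did not pair the samples: residuals of libraries with the same number correlated at -0.13 to 0.05. With the library number as a replicate block, 4915 genes were called higher and 4120 lower in the mean contrast, and 1911 shared higher and 1532 shared lower genes in e2 minus e1, against 5033, 4219, 1993 and 1584 without it. Median-ratio scaling moved the median gene by -0.04, and the share of higher among called genes from 54.4 to 50.37%.

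Of 265 named genes in the rule, 263 kept their direction and call in every setting run, and 19 left the rule in at least 1. The exceptions in call were Minos1 and Srebf1. Most named genes were picked from these data for large changes called in both lines, so their stability does not speak for all shared genes. Centered by chromosome, Minos1 changed to -0.06 and Cd274, which is outside the rule, to 0.13. With the 5 TPM filter, which tests fewer genes, the medians of integrins and laminins (-0.24), complement (-1.82), retinoid handling (0.14), receptor tyrosine kinases (0.03), Wnt components (-0.01), chromatin (-0.07) and NK ligands and adhesion (0.03) changed sign, and that of checkpoint molecules went from -0.41 to -1.74. The median of retinoid handling was also above 0 after centering by chromosome (0.06). In the 250 bases before the start alone, CAGGTG was held by 14.74% of all tested, 10.8% of shared higher, 21.98% of shared lower and 45% of switched-off genes. Depth is unknown, so no detection limit can be given for genes near 0.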

Other observations

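Further groups are given as values. In the p53 and cell cycle inhibitor list 10 of 22 tested genes were higher and 4 lower in both lines, and 7 and 3 after centering by chromosome. Sesn1, a p53 target of the stress response, stood at 3.24, 3.77 and 3.85 TPM in the parental libraries, 10.6, 19.02 and 19.5 in e1 and 17.5, 16.7 and 17.3 in e2, and Perp, a p53 target of desmosomes, stood at 202, 211 and 204 TPM in the parental libraries, 35.5, 40.2 and 39.9 in e1 and 18.2, 18.5 and 18.8 in e2. The former was higher and the latter lower without overlap. Of 25 S100 proteins and annexins 5 were higher and 7 lower, and 4 and 12 after centering by chromosome. Anxa5, a phospholipid-binding annexin, stood at 543, 610.2 and 578 TPM in the parental libraries, 1488, 1365 and 1364 in e1 and 1374, 1364 and 1354 in e2, with e2 minus e1 at -0.04 ± 0.05, adjusted p = 0.506 in the limma fit.

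Imprinted genes were higher in 5 of 13 and lower in 4. Of the 13, 3 entered only through escape and 2 only through parental libraries, and of the 8 present on both sides 3 were higher and 2 lower. Phlda2, a growth-limiting imprinted gene, stood at 65.95, 92.96 and 86.9 TPM in the parental libraries, 10.2, 6.47 and 5.55 in e1 and 6.39, 5.83 and 6.99 in e2. Mest stood at 22.4, 21.5 and 20.1 TPM in the parental libraries, 8.76, 11.1 and 11.8 in e1 and 3.94, 3.34 and 4.02 in e2. Both were lower in all 6 escape libraries, and e2 minus e1 of Mest in the limma fit was -1.27 ± 0.11, adjusted p = 5.05e-06. Of 11 tested Hox genes, Hoxa5 and Hoxa6 were higher in both lines and Hoxa13 was lower, at 2.03, 5.13 and 6.51 TPM in the parental libraries, 0.0459, 0.274 and 0.1295 in e1 and 0, 0.0492 and 0.0436 in e2.

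Gene families grouped by the stem of their symbol, a grouping made after the data were seen, are given by their counts. Of 12 tested Parp genes 9 were higher and 0 lower, of 6 Stat genes 5 and 0, and of 8 Bbs genes, which serve the primary cilium, 5 and 0. Ribosomal protein genes of the large subunit (Rpl) were higher in 0 of 45 and lower in 16, with a median log2 difference of -0.22. These families were not tested, and their shares stand beside 24.2% higher and 21.4% lower over all genes tested.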
